A study of Mus musculus with 2 samples.

Results

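The genes for the boundary factor Ctcf and for cohesin were examined for Myb binding in mouse bone marrow. The set held 10 genes: Ctcf, Rad21, Smc1a, Smc3, Stag1, Stag2, Nipbl, Wapl, Pds5a and Pds5b. A Myb peak was counted for a gene when its summit, the base with the highest signal in the peak, lay inside the gene body or within 20 kb of it (GENCODE vM21, mm10). This rule took 48 of the 25793 peaks in the list, and each of the 10 genes had at least 2. The summit nearest the edge of this window lay 18440 bp past the end of Ctcf (fold enrichment 5.85), and the nearest one left out lay 24946 bp from Ctcf (4.23).

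Myb-bound DNA was sequenced by ChIP-seq (chromatin immunoprecipitation) from WT mice. The cells were lineage-negative (Lin-) cells of the marrow, a mixed population of stem and progenitor cells left after cells with mature blood markers are depleted. There was 1 library made with an antibody against Myb and 1 made with rabbit IgG, the background control, both labelled WT. Each used Lin- cells of a purity above 80%, 1 μg of chromatin and 1.5 μg of antibody, with Tn5 tagmentation on the beads and 12 cycles of PCR. In the study's methods, mice called WT were Ep300 fl/fl without Cre on a C57BL/6 background, of both sexes, and received poly(I:C), the agent that induces Mx1-Cre in the knockout mice. The labels of these libraries name neither the floxed allele nor the injection, and the age and number of mice behind each library were not given. Because there was no replicate, no difference below was tested. The intervals (95%) cover counting error only and no variation between mice or libraries, and neighbouring peaks share chromatin. The peak list holds no expression values with which to check the Lin- label.

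Cohesin is a ring of Smc1a, Smc3 and Rad21 with a Stag subunit that holds sister chromatids together and extrudes loops of chromatin. Nipbl loads the ring and drives its movement, Wapl releases it with the help of the Pds5 proteins, and Ctcf bound to DNA stops it at the boundaries of loops. Myb is a transcription factor of blood stem and progenitor cells whose DNA-binding domain recognizes short sites with the core AAC, and mutations of cohesin genes, STAG2 and RAD21 among them, recur in human myeloid leukemia.

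The sequences below are the windows of 101 bp around a summit in which a Myb motif was found, and they are printed because only 4 of the 48 windows held one. The motif was CAAC or TAAC followed by GG or TG, on either strand, and its letters are in capitals. All are mm10, plus strand, 5′ to 3′.
Smc1a, intron, chrX:152016760-152016860: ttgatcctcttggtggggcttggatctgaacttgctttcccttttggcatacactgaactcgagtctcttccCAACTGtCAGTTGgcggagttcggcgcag
Wapl, intron, chr14:34676503-34676603: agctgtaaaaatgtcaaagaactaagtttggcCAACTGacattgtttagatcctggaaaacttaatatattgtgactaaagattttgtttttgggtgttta
Ctcf, intron, chr8:105642955-105643055: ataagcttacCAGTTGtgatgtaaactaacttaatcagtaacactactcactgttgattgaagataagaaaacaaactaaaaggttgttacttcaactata
Nipbl, intron, chr15:8325115-8325215: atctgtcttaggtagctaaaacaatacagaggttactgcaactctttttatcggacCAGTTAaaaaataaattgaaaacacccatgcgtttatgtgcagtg
In the Smc1a window the motif occurred on both strands, as CAACTG and its reverse complement CAGTTG, 1 base apart. The other 3 windows each held 1 match.

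The strongest member summit, at the Wapl start, held no Myb motif within 50 bp, and its window is shown with the CCAAT box of NFY (ATTGG on the other strand) and the NRF1 site in capitals. The strongest Stag1 summit carried the same pair of motifs. Both are mm10, plus strand.
Wapl, start, chr14:34673826-34673926: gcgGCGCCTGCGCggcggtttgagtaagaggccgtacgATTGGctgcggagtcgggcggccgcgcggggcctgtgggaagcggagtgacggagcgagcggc
Stag1, inner start, chr9:100643276-100643376: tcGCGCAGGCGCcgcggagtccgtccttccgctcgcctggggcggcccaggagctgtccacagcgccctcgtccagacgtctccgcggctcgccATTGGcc

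All 10 genes had a peak at a promoter, taken as a summit within 3 kb of an annotated start site of the gene. Among 21938 protein-coding genes 39.9% had such a promoter peak, and 58.6% had a summit in the gene body or within 20 kb. Long genes catch more peaks: of the 7759 protein-coding genes at least as long as Rad21, the shortest member at 29.5 kb, 48.1% had a promoter peak and 67.8% a summit in the wider window. Any annotated start of a gene counted, and the members had from 1 start (Nipbl) to 14 (Stag1 and Pds5a). The shares of protein-coding genes were not matched for the number of starts. With a stricter limit of at least 5 on -log10 q, 9 of the 10 genes kept a promoter peak, against 24.3% of protein-coding genes, and Pds5b was the gene without one.

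Fold enrichment below is the Myb signal at the summit over the background that the peak caller took from IgG, with the same constant added to both. The reads are Myb reads piled at the summit. The strongest promoter peak of each gene ranged from 4.52 to 12.6 in fold enrichment. Wapl came first at 12.6 (9.07 to 17.1, from 39 reads), and its interval lay above those of Stag1 (5.64, 3.83 to 8.03), Smc3 (4.87, 3.21 to 7.12) and Pds5b (4.52, 2.69 to 7.22). The intervals of all other pairs overlapped, so neither the order below Wapl nor the place of Wapl above the other 6 genes was resolved at this depth. These intervals hold the IgG background fixed and carry no error from it. On reads alone, the Wapl interval (27.7 to 53.3) overlapped those of Stag1 (18.6 to 40.5) and Smc3 (15.4 to 35.7). It lay above that of Pds5b (8.4 to 24.7). The separation of Wapl from Stag1 and Smc3 thus rests on its lower background (1.46 reads, scaled) and was not resolved by reads.

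**Figure D1:**
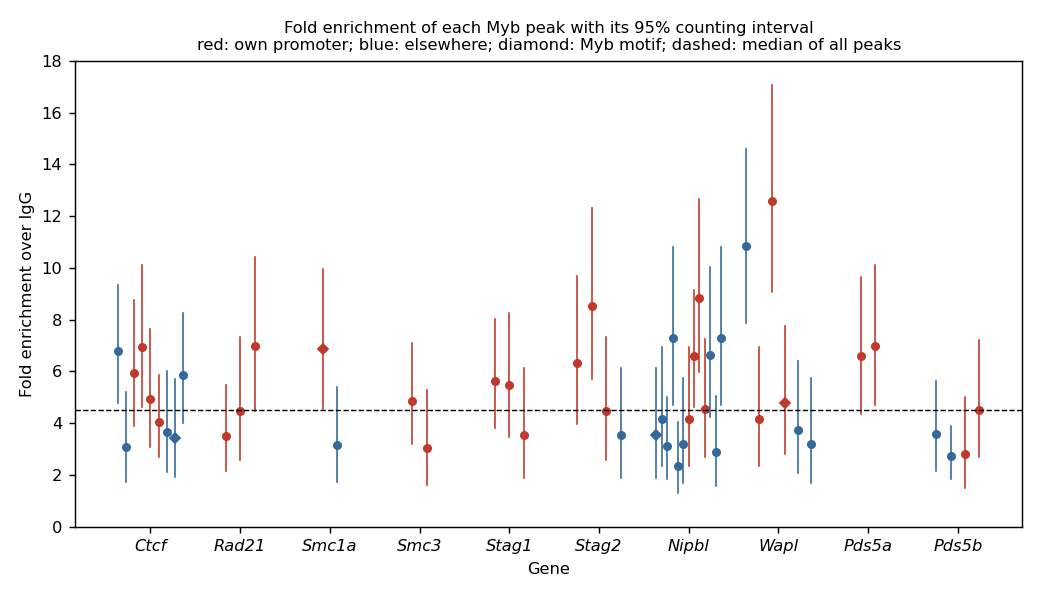
Fold enrichment over IgG of the 48 member peaks, by gene. Each point is 1 peak and each bar its 95% Poisson interval on the reads at the summit; red marks peaks within 3 kb of an own start, blue the others, diamonds a Myb motif and the dashed line the median of all peaks (4.51). Wapl holds the strongest peak at 12.6 and Nipbl the weakest at 2.37.

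Among the ring genes, Smc1a, an X-linked gene for an SMC ATPase subunit, had 2 peaks. The first lay in an intron 382 bp past its start (chrX:152015752-152017683) with a fold enrichment of 6.86 (4.56 to 9.96, 25 reads), and this is the summit with the paired motif shown above. The second was 3059 bp past the start and weaker, at 3.15 (11 reads). Its q was above 0.05, the limit given for the peak calling, so the first peak alone met that limit.

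Smc3, the partner of Smc1a in the ring, had a summit 461 bp upstream of its start (chr19:53599806-53600568) at 4.87 from 24 reads. A second summit 2942 bp into the gene reached 3.03 from 10 reads, with q above 0.05. Rad21, the subunit that closes the ring, had 3 promoter peaks on the minus-strand gene. The strongest was 279 bp upstream (chr15:51991735-51992547) at 6.97 (4.47 to 10.4, 21 reads), and those 436 bp and 1034 bp inside the gene were lower, at 4.47 and 3.52. In Rad21 the highest point of the signal thus lay just upstream of the start, and the interval of the upstream summit overlapped those of both inner summits.

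Stag1 and Stag2 encode the alternative subunits that join the ring. Stag2, on X, had its strongest summit 43 bp past a start site, in the 5′ UTR (chrX:42150710-42152859) at 8.53 (5.71 to 12.3, 26 reads). A summit 212 bp upstream of the first start (chrX:42148150-42150254) reached 6.34 from 19 reads, and one 1021 bp past the inner start reached 4.47 from 13 reads. These promoter peaks followed each other over the first kilobases of the gene, and the first and strongest were both wider than 2 kb. The last Stag2 peak was an intron summit 64119 bp from its nearest start, at 3.53 from 10 reads.

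Stag1 had no peak at its outermost start. Its 3 peaks surrounded start sites farther in, and the strongest summit, 122 bp upstream of one of them (chr9:100642317-100643694), lay 45528 bp into the gene with a fold enrichment of 5.64 (3.83 to 8.03, 28 reads). The others were 696 bp and 2075 bp past another of these starts, at 5.46 (20 reads) and 3.53 (10 reads). The RefSeq promoter of Stag1 also lies at this inner site and holds the strongest summit.

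Nipbl, the loader, had the most peaks of the 10 genes, 13 in all with 4 at its promoter. The strongest was 1181 bp upstream of the start (chr15:8444579-8446612) at 8.84 (5.96 to 12.7, 27 reads), beside one 753 bp inside the gene at 6.60 (33 reads), one 2665 bp inside at 4.15 (12 reads) and one 2549 bp upstream at 4.55 (15 reads). Summits outside the promoter were as high as some within it. One 11080 bp upstream and one in an intron, 32898 bp past the start, both stood at 7.28 (4.71 to 10.8, 22 reads each), while another, 6894 bp upstream, stood at 6.65 (20 reads). Nipbl also held the weakest member peak, an intron summit at 2.37 from 11 reads, and 3 of its 13 peaks had q above 0.05.

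Wapl, the release factor, had 6 peaks. The strongest covered its start (chr14:34673381-34675932), 52 bp from the first base of the gene. A second strong peak, 13133 bp upstream (chr14:34660319-34662606), had a fold enrichment of 10.8 (7.88 to 14.6, 41 reads) and lay 912 bp from the start of the lincRNA Gm49024. These were the 2 highest of the 48 peaks, and their intervals overlapped. The other promoter peaks were weaker, at 4.15 (12 reads) 962 bp upstream of the start and at 4.78 (14 reads) 2625 bp past it, where the Myb motif shown above was found. The upstream one was nearer to the start of the noncoding gene 5830448L01Rik than to that of Wapl.

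Pds5a and Pds5b encode the proteins that bind the ring together with Wapl. Pds5a had a peak on each side of its starts, at 7.0 (4.69 to 10.1, 26 reads) 216 bp upstream (chr5:65698257-65699121) and at 6.60 (4.35 to 9.65, 24 reads) 340 bp past another start. Pds5b was lower at its promoter, where the summit 782 bp past a start reached 4.52 from 15 reads and the one 166 bp upstream reached 2.82 from 9 reads with q above 0.05. The other 2 peaks near Pds5b sat at the start of the neighbouring gene N4bp2l2, 122 bp and 79 bp from it, at 3.57 and 2.72.

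Ctcf had 9 peaks. Its 4 promoter summits were 311 bp upstream of the start at 5.95 (23 reads), 92 bp past it in the 5′ UTR at 6.95 (4.62 to 10.1, 25 reads, chr8:105636523-105636888), 70 bp past a further start at 4.95 (18 reads), and 852 bp past a start at 4.05 (25 reads). Of 21938 protein-coding genes 2.82% had 4 or more promoter peaks, and Ctcf and Nipbl were the 2 members among them. Outside the promoter, the summit 14198 bp upstream of Ctcf was the strongest at 6.78 (4.80 to 9.33, 35 reads). A summit past the far end of the gene at 5.85 (30 reads) lay 175 bp from the start of Pard6a, and an intron summit at 3.41 (12 reads) held the Myb motif. The last Ctcf promoter summit lay 433 bp from the start of the lincRNA Gm5914 and 525 bp from that of the protein-coding gene Agrp. Both were nearer than a Ctcf start, so the peaks there cannot be assigned to 1 gene by position alone. The count of 4 promoter peaks for Ctcf includes this summit. Agrp was also the nearest protein-coding start to the intron summit with the motif (5612 bp, against 5939 bp for Ctcf).

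**Figure D2:**
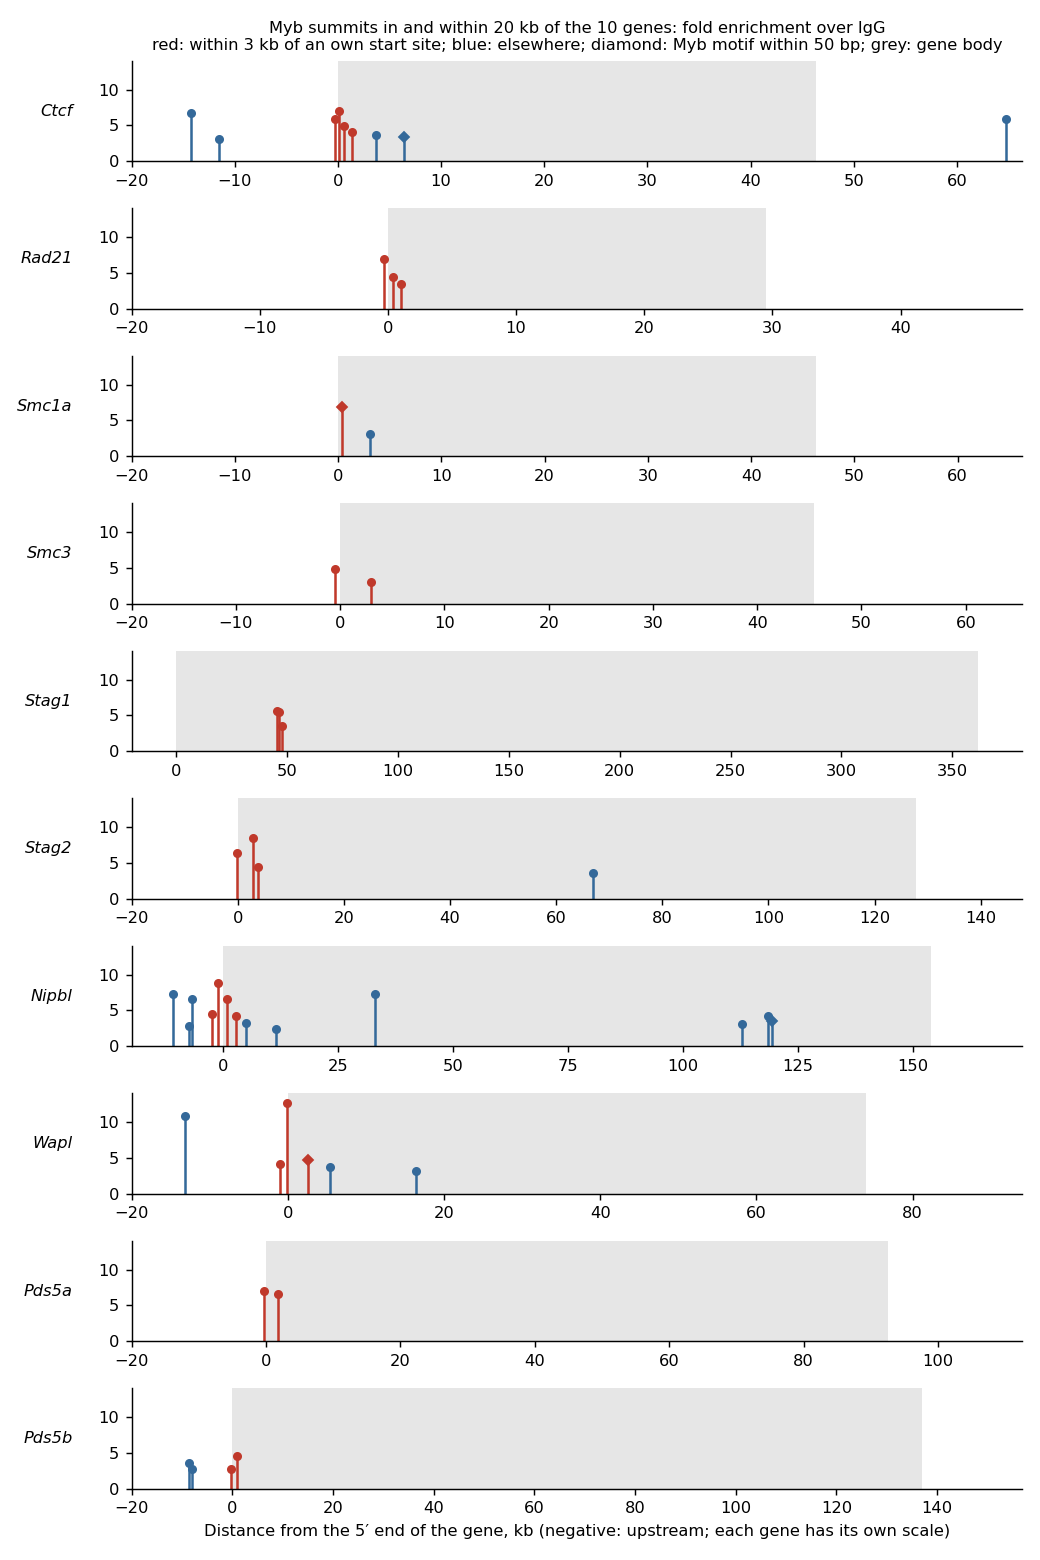
Position of the member peaks along each gene, with the distance from the 5′ end of the gene in kb on the horizontal axis (each gene has its own scale) and fold enrichment over IgG on the vertical axis. Red stems lie within 3 kb of an own start, blue ones elsewhere, diamonds hold a Myb motif and grey is the gene body; the red stems of Stag1 sit 45528 to 48047 bp inside the gene and most of those of the other genes near the 5′ end.

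The 48 summits fell into clusters. When neighbouring summits of a gene within 3 kb were joined, 24 regions remained, and the median gap between the 38 neighbouring pairs was 2518 bp, with a smallest gap of 403 bp. Of the 27 summits within 3 kb of an own start, 14 were within 500 bp, and the median distance was 461 bp. Another 12 lay in introns more than 3 kb from an own start, in 5 of the genes, and 9 lay outside the gene bodies, 4 of these at the start of another gene.

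In strength the member peaks differed from the whole list by less than their own interval. Their median fold enrichment was 4.49 (3.67 to 5.85), against 4.51 for all peaks, and their median number of reads was 16.5 against 18. The 27 promoter peaks of the members had a median of 4.95 (4.47 to 6.60), against 4.54 for all peaks within 3 kb of any start. The other 21 had 3.53 (3.15 to 5.85), an interval that overlapped that of the promoter peaks. The share with q above 0.05 was 14.6% (7 of 48, 6.07 to 27.8), against 7.24% of all peaks. Within 3 kb of any start lay 66.7% (51.6 to 79.6), against 57.6% of all peaks. The intervals of both shares included the value of all peaks. Peak density was higher, with 3.17 peaks per 100 kb (2.34 to 4.20) in the members' windows against 1.61 for all protein-coding genes, an interval that lay above that value. The peaks came in clusters, so this interval is too narrow. The members' peaks had a median GC content of 44.6% around the summit against 48.5%, and 5 of 48 (10.4%, 3.47 to 22.7) were wider than 2 kb, against 3.36%.

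The X-linked members followed the same pattern on a chromosome with few peaks. Of 948 protein-coding genes on X, 15.0% had a promoter peak, and Smc1a and Stag2 were both among them. Their 6 peaks came to 2.36 per 100 kb (0.866 to 5.14), against 0.476 for all protein-coding genes on X. The 8 autosomal members had 3.33 per 100 kb (2.40 to 4.50) against 1.68 for autosomal genes.

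Many peaks share one lowest background value (1.46 reads, scaled). It was found at 19 of 48 (39.6%, 25.8 to 54.7), against 12.4% of all peaks. At such a summit the fold enrichment follows from the Myb reads alone. The strongest promoter peaks of Wapl, Nipbl, Stag2 and Rad21 were of this kind, and the part of this background in their order was not tested.

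The strongest promoter peak of a gene was then placed among the 8758 protein-coding genes with a promoter peak, whose median was 5.25 and upper quartile 6.84. Wapl stood above 96.9% of them, Nipbl above 88.8% and Stag2 above 87.1%. Pds5a (76.6%), Rad21 (75.8%), Ctcf (75.8%) and Smc1a (75.1%) followed. Stag1 (57.1%) was just over the median, and Smc3 (41.5%) and Pds5b (34.5%) were under it. Thus, by their point values, 8 of the 10 genes were above the median and 7 above the upper quartile. Only the interval of Wapl lay wholly above the upper quartile. The intervals of Nipbl and Stag2 included the upper quartile but lay above the median. Those of Pds5a, Rad21, Ctcf, Smc1a, Stag1, Smc3 and Pds5b included both values, so the place of these genes was not resolved. A gene with several promoter peaks has more chances of a high value, and the median gene had 1.

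**Figure D3:**
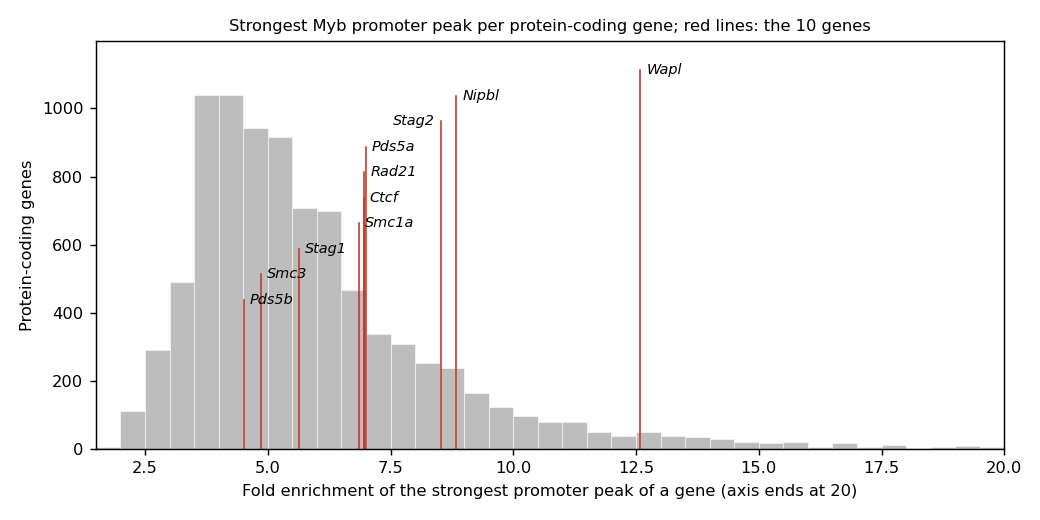
Distribution of the strongest promoter fold enrichment over 8758 protein-coding genes, with the value of each of the 10 members marked by a red line (the horizontal axis is fold enrichment over IgG and ends at 20, the vertical axis counts genes). Wapl lies in the right tail at 12.6, and the point values of Smc3 and Pds5b lie left of the median of 5.25, which their intervals include.

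The Myb motif and the motifs of other blood transcription factors had lower shares at the member summits than in all peaks. A Myb motif lay within 50 bp of 4 of 48 summits (8.33%, 2.32 to 20.0), against 16.7% of all peaks. In windows 500 bp to either side of the summits it was as frequent, at 8.33%, while in all peaks the flanks had 10.5%. The nearest Myb motif within 500 bp was a median of 217.5 bp away in the members and 218.5 bp in all peaks. GATA factors (AGATAA or TGATAA, 6.25% against 13.8%), RUNX (TGTGGT or TGCGGT, 8.33% against 12.2%), ETS (CGGAAG or AGGAAG, 12.5% against 20.4%) and CEBP (TTGCNNAA, 2.08% against 6.16%) were lower in the same way, and the interval of each of these shares, Myb included, contained the value of all peaks. The broader form AACNG lay within 50 bp of 18 of 48 summits (37.5%, 24.0 to 52.6), against 54.3% of all peaks, and this interval lay below the value of all peaks.

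Motifs of general promoter factors had higher shares. NFY (CCAAT) lay within 50 bp of 10 of 48 summits (20.8%, 10.5 to 35.0), against 11.1% of all peaks and 9.38% of the members' flanks. SP/KLF (GGGCGG) was at 12.5% (4.73 to 25.2) against 7.15%, with the same 12.5% in the flanks. The intervals of NFY and SP/KLF contained the value of all peaks. NRF1 was found at 2 summits, those of Wapl and Stag1, which is 4.17% (0.509 to 14.3) against 0.310%, a difference that rests on 2 peaks. The CTCF motif was found at none of the 48 summits, which allows a share of up to 6.25% (3 counts of 48, while the exact interval ends at 7.40%), and at 0.264% of all peaks.

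**Figure D4:**
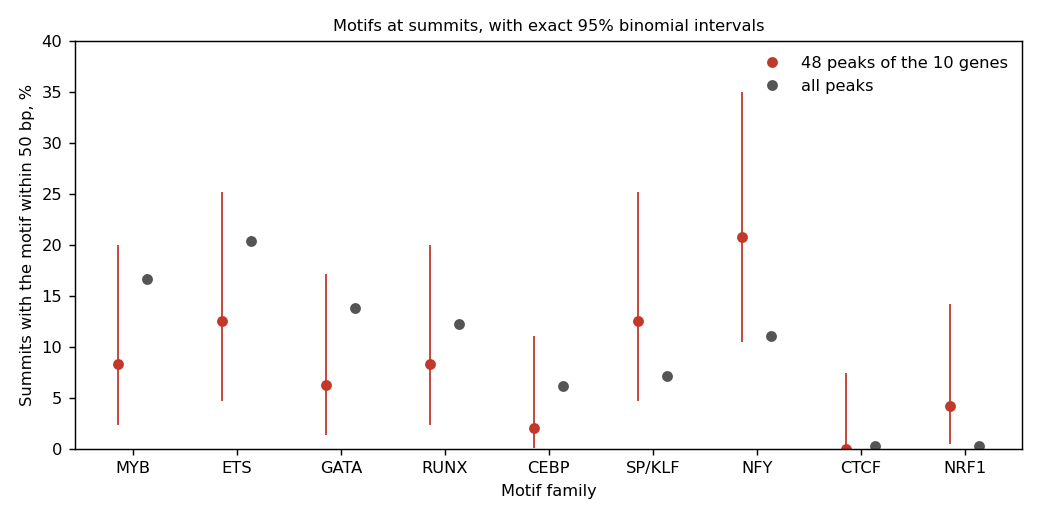
Share of summits with each motif within 50 bp, in percent, for the 48 member peaks and for all peaks, with 95% exact binomial intervals. NFY is at 20.8% in the members and 11.1% in all peaks, and Myb at 8.33% and 16.7%; the intervals of all peaks are narrower than their points.

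Promoters from RefSeq (250 bp before to 50 bp after the start, GRCm38.p6, which has the coordinates of mm10) were matched for 7 of the 10 genes, all but Rad21, Stag2 and Nipbl. Only that of Smc1a held a Myb motif, in capitals here, against 28.3% of 32851 promoters of the table.
Smc1a, promoter, chrX:152016178-152016477, plus strand: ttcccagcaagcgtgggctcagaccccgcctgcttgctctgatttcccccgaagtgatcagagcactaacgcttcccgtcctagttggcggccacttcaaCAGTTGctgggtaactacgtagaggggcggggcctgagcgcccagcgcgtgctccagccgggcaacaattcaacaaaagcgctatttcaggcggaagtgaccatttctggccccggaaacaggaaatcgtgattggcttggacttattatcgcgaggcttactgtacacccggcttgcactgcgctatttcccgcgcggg
GGGCGG was present in all 7, against 35.7% of the table, CCAAT in 4 of 7, against 37.4%, and the NRF1 motif in 2 of 7, against 3.02%. The ETS motif was present in 5 of 7, against 46.5%. GATA factors and CEBP each had a motif in 1 of 7, against 18.6% and 10.8%, and RUNX and CTCF had none, against 22.4% and 0.557%.

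Of 28 other genes of the pathway, 23 had a summit in the gene body or within 20 kb and 17 had a promoter peak, read against the 58.6% and 39.9% of protein-coding genes above. The 3 boundary-linked zinc finger genes Maz, Yy1 and Zfp143 all had a promoter peak, as did 9 of the 10 condensin and Smc5/6 genes. Another 10 genes linked to cohesin were Mau2, Esco1, Esco2, Hdac8, Cdca5, Sgo1, Espl1, Pttg1, Ddx11 and Dscc1. Of these 10 genes 4 had a promoter peak, and of the 5 germline forms only Stag3. By their strongest peak in the window, Maz was the highest, at 28.0 (23.2 to 33.6, 114 reads) with a Myb motif at the summit, followed by Yy1 at 13.7 (10.3 to 17.8), Smc4 at 10.3, Esco1 at 9.15, Smc2 at 9.02 and Zfp143 at 8.94. The Esco1 peak lay 4 bp from the start of Snrpd1, and the Smc2 peak lay 9620 bp from a start of Smc2, whose strongest promoter peak was at 8.16. The Yy1 peak lay nearer to a start of Gm34220 (616 bp) than to one of Yy1 (846 bp). Likewise, the Zfp143 peak lay nearer to a start of AA474408 (170 bp) than to one of Zfp143 (215 bp). No peak was found for Hdac8, Pttg1, Smc1b, Rad21l and Smc5.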

How the data were processed

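ChIP-seq was performed on Lin- bone marrow cells of WT mice, with 1 Myb library and 1 IgG library. Per the labels, the authors' processing used cutadapt 1.15, BWA 0.7.13, Picard and MACS2 2.1.1.20160309 on mm10. How these tools were set beyond that was not all stated. The deposited peak list gives fold enrichment, −log10 p and −log10 q. Fold enrichment was taken as a ratio of Myb signal to IgG background, with 1 added to both. The methods name a q limit of 0.05, whereas 7.24% of the peaks in the list have a higher q, 7 of the 48 member peaks among them. The depth of the libraries is not given in the sources used here. Because fold enrichment and −log10 p are both given per peak, the whole reads at each summit were recovered (scale 0.769, agreement within 0.001 on −log10 p for 100% of peaks, with more than 1 possible number for 0.0892%). The recovery was tested on 2988 simulated peaks and returned the true reads for 100% of them. These peaks were made with the same formula that the recovery inverts, so this checks the calculation and not the formula. Intervals are 95%, Poisson for reads and exact binomial for shares.

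Members, gene lists and tests were chosen with earlier results of these data known. Summits were assigned to genes with GENCODE vM21, promoters were within 3 kb of a start, and the share of protein-coding genes meeting each criterion served as background. Motifs (Myb and 8 others) were counted in 101 bp around the summit and 500 bp to each side. The peaks named were, for each of the 10 genes, its strongest and every promoter peak, plus the 5 strongest of all; of 28 other pathway genes, the 6 with the highest fold enrichment and those with no peak. Intron and neighbour-gene summits outside this rule were chosen after their values were seen. Scripts used python 3.11.15, pandas 2.3.3, scipy 1.17.1 and pysam 0.24.0. Alternatives varied the q limit, window, promoter width, assignment and motif.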

Additional observations from a re-analysis of the deposited data

How the results depend on the processing

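Of 62 alternatives computed, 52 left a count within 1.5 times of the reported one, or another value within its 95% interval, and 10 did not. With -log10 q of at least 2, the promoter share of member peaks was 82.9% and the density 2.31 per 100 kb. With -log10 q of at least 5, 21 member peaks remained, with a promoter share of 81.0%, a median fold enrichment of 6.78 and 1.39 peaks per 100 kb. This limit kept 43.8% of the member peaks and 43.1% of all peaks. Promoters within 1 kb gave a share of 50% and within 500 bp 37.5%. The promoter share, median and density of the whole list were not computed at these q limits and promoter widths. The members' values here therefore cannot be set against those of the unfiltered list. Motif AACNG gave 37.5% of member summits (54.3% of all peaks), and a 100 bp motif window 20.8% (30.0%). The cause of these shifts was not tested beyond what each setting removes or adds by construction. All 10 genes kept a promoter peak at 1 kb and at q of at most 0.05 (41 peaks), a setting chosen after seeing the data. At 500 bp 9 did, without Nipbl, whose nearest summit lay 753 bp from its start. With -log10 q of at least 5, 9 did, without Pds5b. At that last limit 24.3% of protein-coding genes had one. The share of protein-coding genes was not computed at 1 kb, 500 bp or q of at most 0.05, so those counts have no background beside them. No replicate could be left out, since there was 1 Myb library. No paired analysis was possible because there was no replicate. Summits held 9 to 41 Myb reads, which limits the order of the genes.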
